A study of Oryza coarctata with 5 samples.

Results

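The effect of submergence on plants that stood in salt was read from a pair of RNA-sequencing libraries of mature *Oryza coarctata* (Porteresia): plants submerged in a 450 mM sodium chloride solution, and plants kept in a 450 mM sodium chloride solution without submergence. Both carried the same salt, so that submergence is the labelled difference between them. The members are the assembled transcripts with RPKM (the reads of a transcript divided by its length in kilobases and by the library's reads) of at least 1 in either of these libraries and above 0 in all 5 libraries of the series, and 69391 of 152367 transcripts met this rule. The other 3 libraries were plants submerged in water, plants in water as the control, and plants in 700 mM sodium chloride. Plants came from natural conditions, and neither how long treatments lasted, which tissues were taken nor how many plants went into a library is given in the sources used here. Each treatment had 1 library, so no test was possible and no p-value is given. Variation from plant to plant was not measured, and every difference below is one between libraries.

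*Oryza coarctata* is a wild relative of rice from coastal and estuarine mud that is flooded by tides with saline water, and it sheds salt through glands on its leaves. Under water, gas exchange and light are limited. In rice, low oxygen is known to shift carbohydrate use toward glycolysis and fermentation, through genes for enzymes such as alcohol dehydrogenase and pyruvate decarboxylase, and to lower costly processes such as protein synthesis and photosynthesis. The transcript numbers are not paired with gene names in the files, so none of these pathways could be followed here, and transcripts are described by their levels alone. Several assembled transcripts can belong to 1 gene, and near-identical gene copies can share reads.

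Read totals and transcript lengths were solved from the smallest differences between RPKM values. The totals were 74867541 reads for submergence in 450 mM NaCl and 59818916 reads for 450 mM NaCl. In the other libraries they were 78997383 reads for submergence in water, 56638113 for the water control and 58431827 for 700 mM NaCl. Both submerged libraries were thus deeper than every library without submergence, and the part of depth in the differences below was not tested. The members held 93.9 to 95.7% of the summed RPKM of each library. Their median length was 651 nt, and a median of 146 reads in submergence in 450 mM NaCl and 108 reads in 450 mM NaCl lay behind each value. Fewer than 10 reads in 1 or both of these libraries lay behind 2758 members (3.97%). Such low counts were more frequent among the members called 2-fold apart below. Of 5353 higher members, 1127 (21.1%) had under 10 reads in 450 mM NaCl. Of 4698 lower members, 696 (14.8%) had under 10 reads in submergence in 450 mM NaCl.

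Most members stood at similar levels with and without submergence in salt, and a minority differed in either direction. A log2 ratio is that of RPKM + 0.5 in submergence in 450 mM NaCl over RPKM + 0.5 in 450 mM NaCl, a scale that understates the differences of low transcripts. Of the 69391 members, 62.5% lay within 1.5-fold, 5353 (7.71%) were at least 2-fold higher in submergence in 450 mM NaCl and 4698 (6.77%) were at least 2-fold lower. Over all 71650 transcripts at RPKM 1 in either library, these shares were 7.66% higher and 8.68% lower. At least 4-fold, 216 members were higher (0.311%) and 504 were lower (0.726%), beside 0.32% and 1.01% of all 71650. Larger differences thus lay more often on the lower side, by 504 to 216.

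The centre of the distribution was shifted upward. The median log2 ratio of the members was 0.12, with quartiles of −0.32 and 0.52. Median-of-ratios scaling moved every log2 ratio of RPKM down by 0.13 and brought the median of the members to 0.01. Higher members made up 53.3% of the 2-fold calls with RPKM as deposited and 41.2% after that scaling. Relative to the median of the members, 3754 were 2-fold higher (5.41%) and 6111 were 2-fold lower (8.81%), with 146 and 681 at 4-fold. The balance at 2-fold therefore turns with the scaling, while the excess of lower members at 4-fold was present in both.

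The condition of a value above 0 in all 5 libraries acted mainly on one side. It left out 2259 transcripts that reached RPKM 1, of which 134 were 2-fold higher and 1518 were 2-fold lower in submergence in 450 mM NaCl. Of the 2259, 1860 were at 0 in the 700 mM NaCl library, a library that takes no part in the contrast, and 1252 of these were 2-fold lower. Zeros were also found for 139 of the 2259 in submergence in 450 mM NaCl, for 74 in 450 mM NaCl, for 318 in the plants submerged in water and for 176 in the water control, and a transcript can have more than one. Members that had few reads at 700 mM NaCl remained: 44 had at most 1 read there against a sum of at least 100 reads over the other 4 libraries. Of these 44, 18 were 2-fold higher (40.9%) and 16 lower (36.4%), beside 7.71% and 6.77% of all members. The part of the 700 mM NaCl library in this difference was not tested.

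The condition on RPKM 1 also fixes a direction for some members. It was met in both libraries by 52877 members, of which 2673 (5.06%) were 2-fold higher and 2464 (4.66%) lower. Another 9532 met it in submergence in 450 mM NaCl only, with 2680 called higher, and 6982 met it in 450 mM NaCl only, with 2234 called lower. Those calls could point only one way. Just inside the limit, where the larger of both values was 1 to 1.1 RPKM, 5.54% of 3430 members were higher and 4.84% lower. Just outside it, at 0.9 to 1 RPKM, 4.81% of 3801 transcripts were higher and 3.89% lower.

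How the contrast varied with expression level was examined in 7 classes of the mean RPKM of both libraries. The lowest class, under RPKM 2, held 27505 members, of which 9.27% were 2-fold higher and 7.28% lower. In the class of 20 to 50 RPKM, these shares were 4.56% and 5.47% of 5065 members. The most abundant class, at RPKM 100 and over, went against this decline: 42 of its 887 members (4.74%) were higher and 102 (11.5%) were lower. The excess of higher members at the low levels turned over relative to the median of all members, with 6.37% higher and 9.78% lower under RPKM 2. The excess of lower members at RPKM 100 and over had the same direction on that scale, with 3.61% higher and 14.1% lower.

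**Figure D1:**
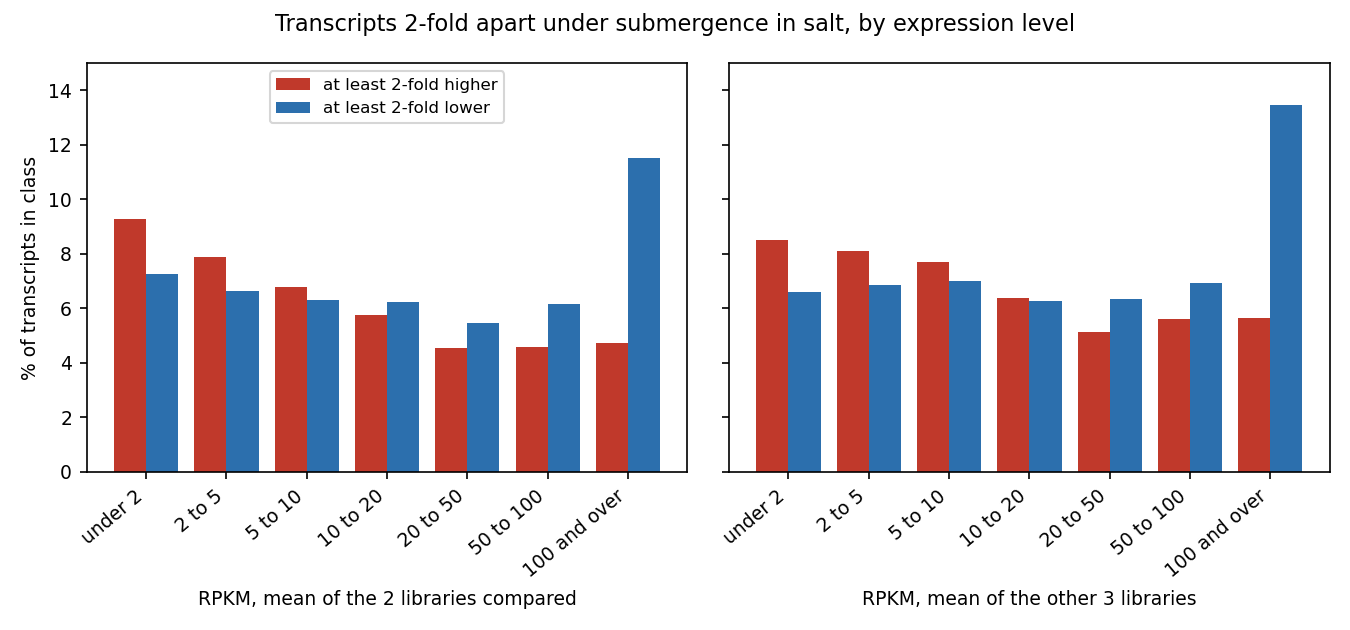
Share of members at least 2-fold higher (red) or lower (blue) in submergence in 450 mM NaCl than in 450 mM NaCl, in percent of each class of RPKM. Classes are set by the mean of the libraries compared (left) or by the mean of the other 3 libraries (right); in both, the class of 100 and over has the tallest bar for lower transcripts, at 11.5% and 13.5%.

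Since the level in that grouping contains the values compared, the members were also grouped by their mean RPKM in the other 3 libraries. That grouping is not independent of submergence: both the water control and the 700 mM NaCl library are without it, so transcripts that are low under submergence can enter the top class through them. At RPKM 100 and over in those libraries, 47 of 832 members (5.65%) were higher and 112 (13.5%) were lower, and 35 were at least 4-fold lower while none was 4-fold higher. Under RPKM 2, 8.49% of 25404 were higher and 6.61% lower. The median log2 ratio was 0.15 in that lowest class and −0.09 in the highest. Another grouping, chosen after seeing the data, used the mean of submergence in water and the water control, 1 library with submergence and 1 without. Its class at RPKM 100 and over held 73 of 832 members (8.77%) that were 2-fold higher and 74 (8.89%) that were lower, and its class under RPKM 2 held 6.82% higher and 9.03% lower. The excess of 2-fold lower members in the most abundant class, and that of higher members in the lowest, thus depended on which libraries set the level. At 4-fold, 1 of those 832 was higher and 19 were lower.

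The spread of the ratios was set beside their counting error. The standard deviation of the log2 ratio was 0.72 under RPKM 2, 0.63 at 20 to 50 RPKM and 0.79 at 100 and over. The median counting error of a log2 ratio, from reads alone, was 0.33 under RPKM 2, 0.041 at 20 to 50 RPKM and 0.017 at 100 and over. All 5353 higher and 4698 lower members had a ratio whose exact 95% interval for counting error left out 1. For called members the call rule largely fixes this beforehand, and the interval left out 1 for 64.8% of all members. The interval lay wholly at or beyond 2-fold for 3316 of the higher members (61.9%) and 3425 of the lower members (72.9%). These intervals cover counting error only, since reads are not independent molecules and plants were not replicated.

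**Figure D2:**
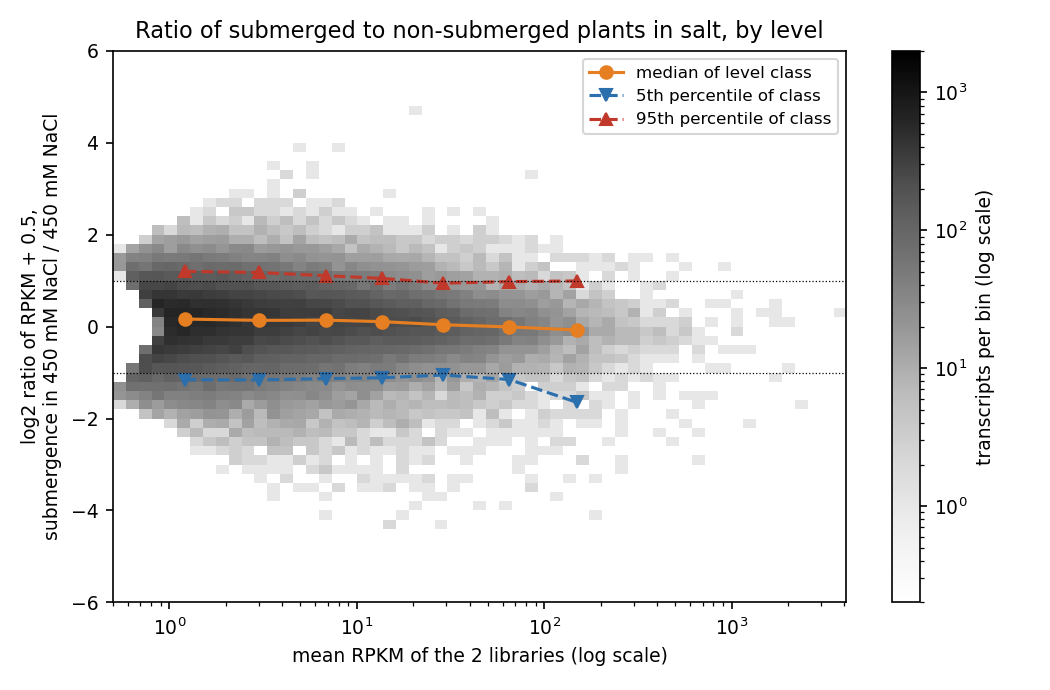
Log2 ratio of submergence in 450 mM NaCl over 450 mM NaCl for 69391 members (grey, transcripts per bin) against the mean RPKM of both libraries on a log axis, with the median, 5th and 95th percentile of each level class. Dotted lines mark 2-fold; the median goes from 0.16 in the lowest class to −0.07 in the highest, and the 5th percentile is −1.65 in the highest.

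At RPKM 100 and over, the 29 members at least 4-fold lower had a median of 41.4 RPKM in submergence in 450 mM NaCl and 282 RPKM in 450 mM NaCl. In libraries outside the contrast, their medians were 16.0 RPKM in submergence in water, 229 RPKM in the water control and 344 RPKM at 700 mM NaCl. All 29 were also at least 2-fold lower in submergence in water than in the water control. The same held for 96.4% of all 4-fold lower members and 11.4% of all members. Of the 42 abundant higher members, 36 were at least 2-fold higher there, beside 56.9% of all 2-fold higher members and 8.79% of all members. The 42 at least 2-fold higher in salt had a median of 203 RPKM in submergence in 450 mM NaCl and 83.9 RPKM in 450 mM NaCl, with 350 RPKM in submergence in water, 124 RPKM in the water control and 61.3 RPKM at 700 mM NaCl. The submerged libraries thus stood together on one side for both sets, and the 3 libraries without submergence on the other, as medians, while the values of the contrast itself are fixed by the calls.

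Called members were followed through all 5 libraries, of which those of the contrast are fixed by the calls. The 5353 higher members held 7.49% of the summed RPKM in submergence in 450 mM NaCl and 2.70% in 450 mM NaCl. They held 11.1% in submergence in water, 3.96% in the water control and 2.34% at 700 mM NaCl. The 4698 lower members held 3.81% in submergence in 450 mM NaCl and 11.8% in 450 mM NaCl. Their shares were 2.25% in submergence in water, 9.81% in the water control and 13.7% at 700 mM NaCl. In the libraries that took no part in the calls, the higher members were most abundant under water and the lower members at 700 mM NaCl.

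**Figure D3:**
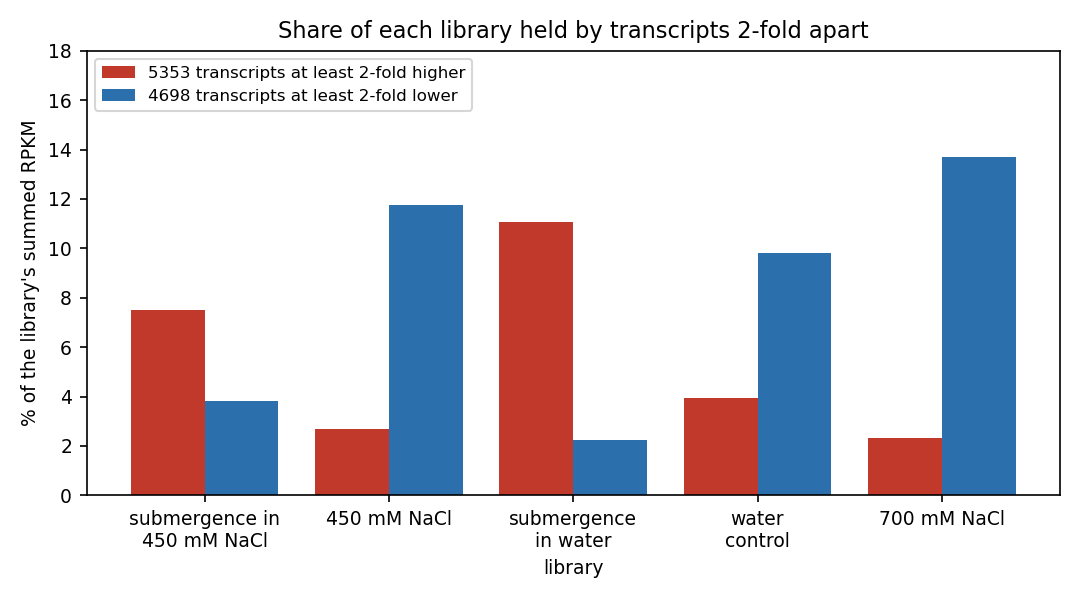
Percent of each library's summed RPKM held by the 5353 members at least 2-fold higher (red) and the 4698 at least 2-fold lower (blue) in submergence in 450 mM NaCl than in 450 mM NaCl. The red bar is tallest in submergence in water (11.1%) and the blue bar at 700 mM NaCl (13.7%).

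With RPKM as deposited, the amount of RPKM gained was spread over more transcripts than the amount lost. Members that stood higher in submergence in 450 mM NaCl, whatever the size of the difference, numbered 40084 and together gained 123144 RPKM. The 29307 that stood lower together lost 132915 RPKM. The 10 largest losses made up 8.0% of all RPKM lost and the 10 largest gains 4.24% of all RPKM gained. It took 766 members to reach 50% of the loss and 2179 members to reach 50% of the gain.

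The transcripts with the largest differences were taken from 16239 members that reached RPKM 10 in at least 1 library of the contrast. The 25 largest on the higher side had log2 ratios from 2.34 to 4.79. Their RPKM ranged from 10.04 to 165 with a median of 14.1 in submergence in 450 mM NaCl, and from 0.498 to 17.0 with a median of 1.78 in 450 mM NaCl. As a group they overlapped between the libraries, since the highest value in 450 mM NaCl exceeded the lowest in submergence. In the other libraries, their median was 36.4 RPKM in submergence in water, 5.14 RPKM in the water control and 2.93 RPKM at 700 mM NaCl. Each of the 25 stood above the 3 libraries without submergence in both submerged libraries, a pattern of 33.8% of all members and 88.0% of all 2-fold higher members. The choice of a high ratio in salt fixes part of it. In 22 of 25 the level was lower in submergence in 450 mM NaCl than in submergence in water, as it was in 49.6% of all members and 74.7% of all 2-fold higher members.

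**Figure D4:**
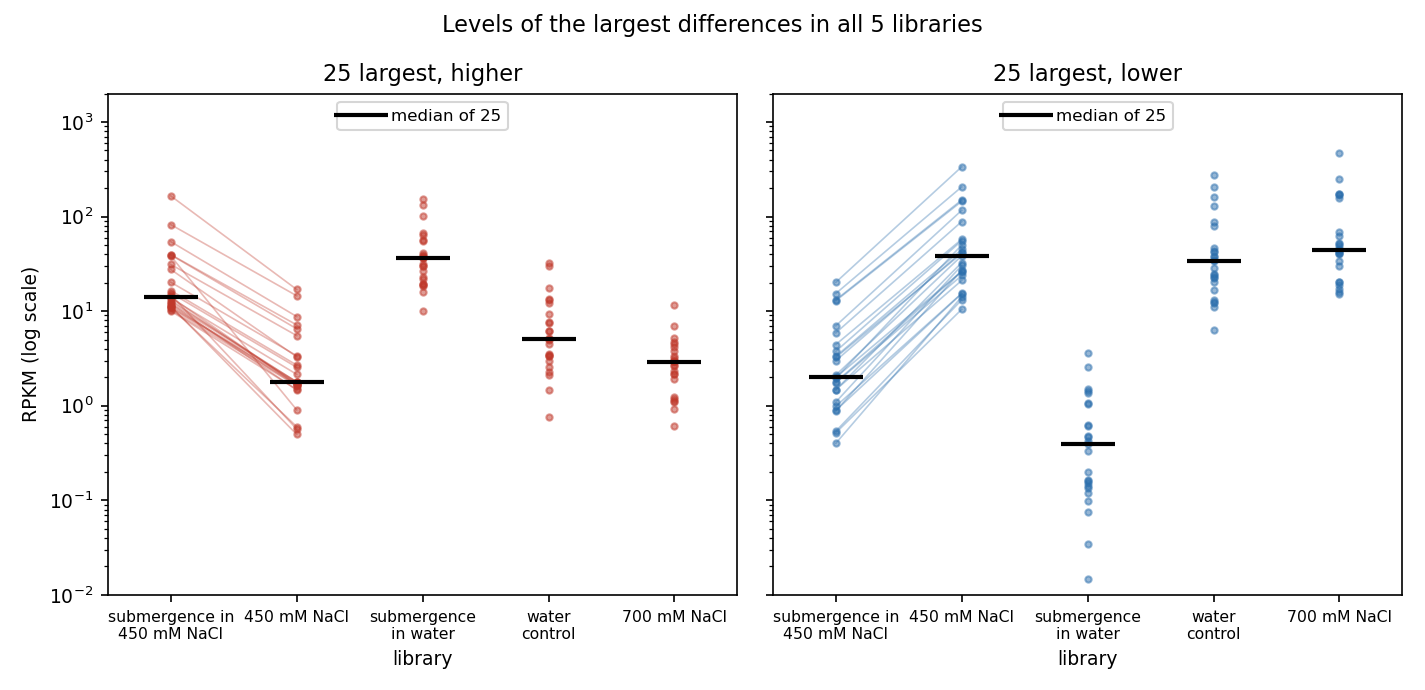
RPKM (log axis) of the 25 largest differences on the higher side (left) and on the lower side (right) in all 5 libraries; each point is 1 transcript, lines join its values in the libraries compared, and the black bar is the median of the 25. On the right the median is 1.99 in submergence in 450 mM NaCl, 38.5 in 450 mM NaCl and 0.398 in submergence in water.

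On the lower side, the 25 largest had log2 ratios from −4.36 to −3.42. Their RPKM ranged from 0.401 to 20.2 with a median of 1.99 in submergence in 450 mM NaCl, and from 10.5 to 336 with a median of 38.5 in 450 mM NaCl. Their median was 0.398 RPKM in submergence in water, 33.5 RPKM in the water control and 44.2 RPKM at 700 mM NaCl. The range in submergence reached above the lowest value in 450 mM NaCl, so the groups overlapped here too. All 25 stood below the 3 libraries without submergence in both submerged libraries, as 25.8% of all members and 94.1% of all 2-fold lower members did, and the choice of a low ratio in salt fixes part of this. In 24 of 25 the level was higher in submergence in 450 mM NaCl than in submergence in water, beside 50.4% of all members and 72.9% of all 2-fold lower members. In submergence in 450 mM NaCl 6 of them were at RPKM 1 or less, and in submergence in water 18. These values came from as few as 6 reads in submergence in 450 mM NaCl and 1 read in submergence in water.

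Of the higher members, the one with the largest ratio was Pc_TC046817, an assembled transcript of 240 nt. It stood at 38.3 RPKM (688 reads) in submergence in 450 mM NaCl and at 0.906 RPKM (13 reads) in 450 mM NaCl. The other libraries gave 102 RPKM in submergence in water, 2.28 RPKM in the water control and 0.927 RPKM at 700 mM NaCl. It was high in both submerged libraries and below RPKM 3 in the rest. The RPKM ratio in salt was 42.3 (95% interval for counting error 24.6 to 79.8).

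The largest gain in RPKM among higher members was that of Pc_TC038633 (565 nt), at 1320 RPKM in submergence in 450 mM NaCl and 565 RPKM in 450 mM NaCl. Plants submerged in water had 2152 RPKM, the water control 713 RPKM and plants at 700 mM NaCl 428 RPKM. This abundant transcript was thus lowest at the higher salt dose and highest under water. With 55848 reads in submergence in 450 mM NaCl and 19092 reads in 450 mM NaCl, the ratio was 2.34 (2.30 to 2.38).

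Pc_TC066979 (300 nt) had the lowest ratio. It stood at 1.96 RPKM (44 reads) in submergence in 450 mM NaCl and at 50.1 RPKM (899 reads) in 450 mM NaCl, which is 25.6-fold lower (18.9 to 35.4). Plants submerged in water had 1.43 RPKM, the water control 33.5 RPKM and plants at 700 mM NaCl 51.7 RPKM. Its levels in the submerged libraries were close to each other, and both were far below the rest.

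The largest loss in RPKM was that of Pc_TC117680 (498 nt), at 1068 RPKM in submergence in 450 mM NaCl and 3332 RPKM in 450 mM NaCl. Plants submerged in water had 784 RPKM, the water control 2691 RPKM and plants at 700 mM NaCl 2348 RPKM. It was 3.12-fold lower (3.08 to 3.16) in submergence in 450 mM NaCl. Both submerged libraries lay below the other 3.

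The same members were then read in a contrast that shares no library with this one, submergence in water over the water control. In both contrasts the submerged library was the deeper one. In that contrast 12.1% of 77196 transcripts at RPKM 1 in either of its libraries were 2-fold higher and 11.9% were lower. That set differs from the members, of which 8.79% were higher in water and 11.4% were lower. Of the 5353 members higher in salt, 3045 (56.9%) were also higher in water, 2273 (42.5%) were within 2-fold and 35 were lower. The 3045 made up 49.9% of the 6101 members higher in water. Of the 4698 members lower in salt, 3473 (73.9%) were also lower in water, 1174 were within 2-fold and 51 were higher. The 3473 made up 43.9% of the 7909 members lower in water. Among members 4-fold apart, 191 of 216 higher (88.4%) and 486 of 504 lower (96.4%) were at least 2-fold apart in the same direction in water.

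The size of the ratios in water was set beside that in salt. The 64 members with a log2 ratio of −3 or less in salt had a median of −3.36 there and −4.50 in water, and all 64 were below 0 in water. The 440 members from −3 to −2 had medians of −2.28 in salt and −2.79 in water. On the higher side, the 5137 members from 1 to 2 had medians of 1.23 in salt and 1.09 in water, and the 206 from 2 to 3 had 2.20 in salt and 2.01 in water. The 10 members at 3 or more had 3.48 in salt and 4.06 in water. The contrasts have different centres, with a median over all members of 0.12 in salt and 0.02 in water. Relative to these, the class of −3 or less was at −3.48 in salt and −4.52 in water, and that from −3 to −2 at −2.41 in salt and −2.81 in water. The class from −2 to −1 was at −1.41 in both, and that from 1 to 2 at 1.11 in salt and 1.07 in water. The class from 2 to 3 was at 2.08 in salt and 1.99 in water, and the 10 members at 3 or more were at 3.35 in salt and 4.04 in water. The classes at −2 and below and that of 3 or more were thus farther from the centre in water than in salt. Those in between differed little.

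**Figure D5:**
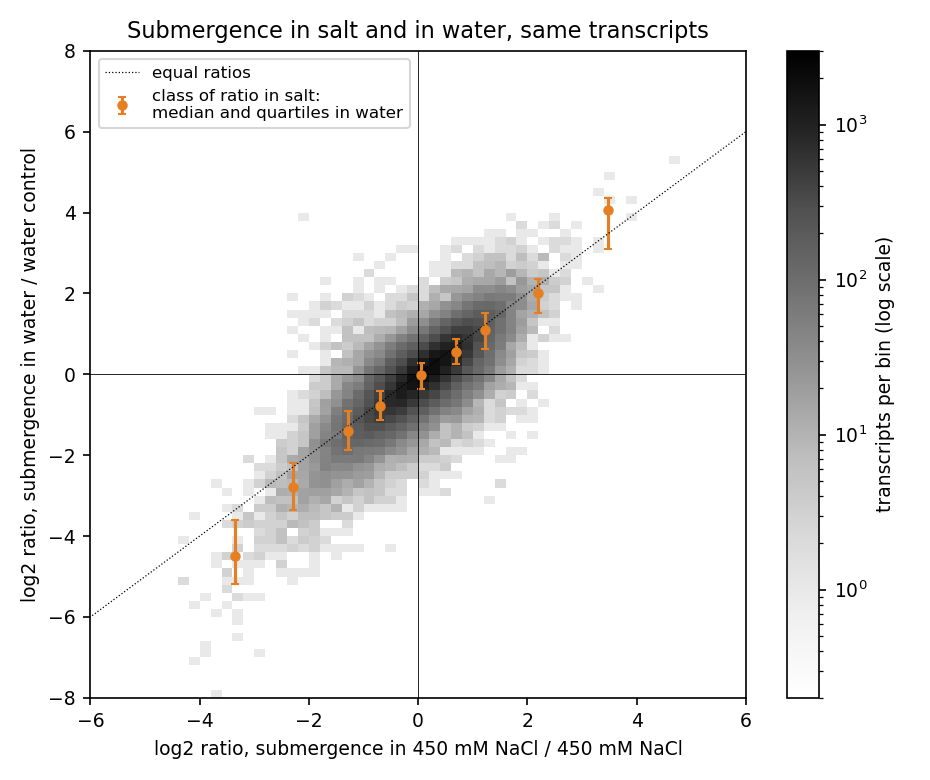
Log2 ratio of submergence in water over the water control (vertical) against that of submergence in 450 mM NaCl over 450 mM NaCl (horizontal) for 69391 members, in transcripts per bin; the dotted line marks equal ratios. Orange points are medians of 9 classes of the ratio in salt with quartiles in water; the leftmost class lies at −3.36 in salt and −4.50 in water.

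Across the 69391 members, Pearson's r between the ratios of these contrasts was 0.78 and Spearman's rho was 0.75, as a description, since transcripts are not independent replicates. Their standard deviations were 0.71 in salt and 0.86 in water. By level, r was 0.69 under RPKM 2, 0.84 at 5 to 10 RPKM and 0.91 at RPKM 100 and over. The median reads per value went up along the same classes, from 49 in submergence in 450 mM NaCl under RPKM 2 to 345 at 5 to 10 RPKM and 15400 at RPKM 100 and over, and the part of depth in the order of the r values was not tested.

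The 2273 members that were 2-fold higher in salt but within 2-fold in water were low transcripts in the main, as were the members as a whole. Their medians were 2.40 RPKM in submergence in 450 mM NaCl and 0.727 RPKM in 450 mM NaCl, with 2.41 RPKM in submergence in water and 1.55 RPKM in the water control. The medians of all members in these libraries, in the same order, were 2.81, 2.62, 2.94 and 2.86 RPKM. In the set, 215 reached RPKM 10 in a library of the contrast, beside 16239 of all 69391 members. Being 2-fold apart in salt and not in water chose these members, so these medians are a description and largely follow from that choice. Another 1174 members were 2-fold lower in salt but within 2-fold in water. Their medians were 0.515 RPKM in submergence in 450 mM NaCl and 1.87 RPKM in 450 mM NaCl. In submergence in water the median was 0.735 RPKM, and in the water control 1.23 RPKM. The median log2 ratio in water was 0.56 for the 2273 members and −0.64 for the 1174. As medians, both sets thus leaned in water to the same side as in salt, short of 2-fold. Whether the effect of submergence differed between salt and water for these members could not be tested with 1 library a treatment.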

How the data were processed

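Per the labels' protocols, an Illumina mRNA kit was used on total RNA extracted with TRI reagent. The deposited values are RPKM per assembled transcript, calculated by the authors after filtering reads with NGS QC Toolkit and mapping them to Porteresia transcripts, per the series' design text. Mapper, versions and the treatment of reads that fit several transcripts were not given in the sources used here.

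RPKM was compared as deposited, as log2 ratios with a pseudocount of 0.5. Scaling to a library's total makes each ratio relative to all other transcripts, so a shift of the whole cannot be seen. Whole reads, lengths and read totals were solved from the RPKM steps (minimum length 200 nt, tolerance 0.01 reads) for 152263 transcripts, all those above 0 in any library. They served for depth, length and exact 95% counting intervals (Clopper-Pearson). A true read number can be a multiple of the one solved. The procedure was tested on simulated data. Python 3.11.15, numpy 2.4.6, pandas 2.3.3 and scipy 1.17.1 were used.

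Members, lists and classes were chosen with earlier results of these data known. The transcripts named are, per direction, the one with the largest log2 ratio and the one with the largest difference in RPKM, among members at RPKM 10 or more and 2-fold apart. Pathway lists and sequences were not used here, because the files pair transcript numbers with neither names nor sequences.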

Additional observations from a re-analysis of the deposited data

Results flagged for a closer look

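A small number of members pointed in opposite directions in salt and in water. With 1 library a treatment, the difference between salt and water was not tested.

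Among the members, 51 were at least 2-fold lower in submergence in 450 mM NaCl than in 450 mM NaCl and at least 2-fold higher in submergence in water than in the water control. These 51 were 1.09% of the members 2-fold lower in salt, while 8.79% of all members were 2-fold higher in water. Their medians were 1.51 RPKM in submergence in 450 mM NaCl and 5.66 RPKM in 450 mM NaCl, with 5.38 RPKM in submergence in water and 1.70 RPKM in the water control. In the 700 mM NaCl library the median was 0.075 RPKM, beside 2.74 RPKM for all members, and 12 of the 51 had at most 1 read there. Of the members 2-fold apart in salt but not in water, 16 of 2273 higher and 10 of 1174 lower had at most 1 read there. In 17 of the 51 a library of the contrast in salt reached RPKM 10. The part of the 700 mM NaCl library in this set was not tested.

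Another 35 members were at least 2-fold higher in salt and at least 2-fold lower in water. These 35 were 0.654% of the members 2-fold higher in salt, while 11.4% of all members were 2-fold lower in water. Their medians were 2.86 RPKM in submergence in 450 mM NaCl and 0.911 RPKM in 450 mM NaCl, with 0.575 RPKM in submergence in water and 2.86 RPKM for the plants of the water control. The median at 700 mM NaCl was 1.46 RPKM, none had at most 1 read there, and 3 of the 35 reached RPKM 10 in a library of the contrast in salt.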

How the results depend on the processing

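The number of 2-fold higher members (5353) was 8451 with a pseudocount of 0.1, 3011 with 1 and 1943 among members at RPKM 5 in either library. It was 5487 with values of 0 allowed, 4084 after median-of-ratios scaling and 3754 centred on the median. The number of 2-fold lower members (4698) was 6697 with a pseudocount of 0.1, 3079 with a pseudocount of 1 and 2025 at RPKM 5. It was 6216 with values of 0 allowed, 5829 after median-of-ratios scaling and 6111 centred on the median. At 4-fold, higher members (216) numbered 1140, 85 and 132 with a pseudocount of 0.1, of 1 and at RPKM 5, and lower members (504) numbered 1411 and 294 with a pseudocount of 0.1 and 1. The higher share of 2-fold calls (53.3%) was 55.8% and 49.4% with a pseudocount of 0.1 and 1, 49.0% at RPKM 5, 46.9% with values of 0 allowed, 41.2% after median-of-ratios scaling, 55.9% with equal sums of RPKM and 38.1% centred on the median. The median log2 ratio (0.12) was 0.14 and 0.11 with a pseudocount of 0.1 and 1, 0.079 with no filter at RPKM 1, 0.10 at RPKM 5, 0.11 with a filter on the other 3 libraries, 0.10 with values of 0 allowed, 0.013 after median-of-ratios scaling, 0.15 with equal sums and 0 when centred. The centring and the leaving out of members missing at 700 mM NaCl were chosen after seeing the data. Without those 44 members, 5335 were 2-fold higher and 4682 lower. So few members could not have moved these counts far, so this says little about the part of that library. The excess of lower over higher members at 4-fold held under each setting above, and that of higher over lower at 2-fold did not. Requiring a counting interval that leaves out a ratio of 1 took away no call, which the call rule largely fixes beforehand. An interval wholly at or beyond 2-fold left 3316 higher and 3425 lower members. No paired analysis was possible because each treatment has 1 library, and for the same reason no replicate could be left out.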

Other observations

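The recovered length of a transcript, which the choice of members did not use, was set beside how often members were 2-fold apart. Among members with a mean RPKM of at least 10 in the libraries compared, 101 of 1846 of 200 to under 300 nt (5.47%) were higher and 151 (8.18%) were lower in submergence in 450 mM NaCl. From 300 to under 500 nt the shares were the highest, at 6.42% higher and 9.01% lower of 1698 members. Among the 3489 of 2000 nt and over, 132 (3.78%) were higher and 125 (3.58%) were lower. The middle class of 500 to under 1000 nt gave 5.83% higher and 8.74% lower of 2575 members. From 1000 to under 2000 nt, 5.16% of 4693 members were higher and 5.22% lower. At 4-fold, 33 of the 1846 shortest and 12 of the 3489 longest were lower. The median reads per value in submergence in 450 mM NaCl were 307 for the shortest class and 5268 for the longest, and the part of read numbers in the lower shares of the longest class was not tested. Over all members, whatever their RPKM, the balance in the shortest class was the other way, with 10.1% higher and 7.60% lower of 14099. From 300 to under 500 nt, 8.71% of all 14203 members were higher and 7.98% lower.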
